A study of Bombyx mori with 4 samples.

Results

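The zinc finger proteins of the silkworm array were followed through RNAi of 4 Polycomb group (PcG) genes. They were chosen by name alone: a gene probe belonged to the list when its annotation held the words zinc finger or growth factor independent, unless the name also spoke of ubiquitin, a nuclear receptor, a histone or a helicase. Of 23229 gene probes on the array, 283 carried the words, 3 were left out and 280 made up the list. The rule itself used names and no measured value, but it was set with earlier results of these data known.

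The cells were BmN4-SID1, a derivative of the ovary cell line BmN4 of Bombyx mori that takes up long dsRNA from its medium, and every group shared this background. They received dsRNA against BmSCE (a ring finger subunit of PRC1), BmESC (the WD40 subunit of PRC2), BmPHO (the DNA-binding subunit of PhoRC) or BmSCM (the sex comb on midleg homolog), and the reference cells received dsRNA against EGFP, which the silkworm does not carry. All were harvested on day 7. RNA pooled from 3 experiments per treatment was hybridized on 1 array per knockdown, with the knockdown in Cy5 and the same EGFP RNAi control in Cy3, and the dyes were never exchanged. There is therefore no spread between replicates and no p-value anywhere below, a dye effect of a probe cannot be told apart from a knockdown effect, and the log2 ratios of the arrays share their reference.

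A zinc finger is a short protein fold pinned together by a zinc ion. Strings of C2H2 fingers read DNA sequence and make up the largest class of transcription factors in many animals, whereas other kinds of finger bind RNA (CCCH), lipids (FYVE), ubiquitin (A20) or other proteins (MYND), or carry an enzyme activity (DHHC, which adds palmitate). Pho itself and its mammalian counterpart YY1 are C2H2 proteins, and in flies PcG complexes are known for silencing genes of developmental transcription factors, many of which belong to this family.

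The names rest on sequence matches. Of the 280 probes, 220 had their best match in a vertebrate (79 in zebrafish, 36 in mouse, 32 in human and 28 in cow) and 26 in an insect. The names of 225 gave none of the classes of finger used below. Many of these were a number or the plain words, and others were names such as hindsight, pannier or Zfx. Only 5 were tied to a silkworm gene number, for 4 genes. C2H2 fingers resemble each other, so a numbered vertebrate name says that the probe lies in a finger gene and not which one, and 31 probes shared the single name zinc finger protein 91. Names are therefore called matches throughout, and each probe stands under its own identifier.

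A probe counted as measured where the authors' flag accepted its spot. The rule of the flag is not stated, and a limit of 400 intensity units in the brighter channel was read from the values. Rises and falls are ratios beyond 2.0-fold, the study's threshold. Values over the 4 arrays run in the order BmSCE, BmESC, BmPHO, BmSCM throughout. For the knocked down genes themselves the array can follow BmESC through a match to extra sex combs (sw12637), which fell to 486 in BmESC RNAi against 2311 in EGFP RNAi, a log2 ratio of -2.61, with 0.13, -0.33 and -0.68 on the BmSCE, BmPHO and BmSCM arrays. The match to sex comb on midleg was not measured on any array, and no probe is named for BmPHO or BmSCE. Spots of 5 silkworm control probes, printed 49 times each, varied with an SD of 0.07 to 0.42 in the log2 ratio (median 0.10), which is error between spots and not between cultures. The 8 yeast spike-in controls stood a median of 2.60 higher in log2 ratio on the arrays of BmPHO and BmSCM RNAi than on those of BmSCE and BmESC RNAi, and their part in the results of these arrays was not tested. Among ovary and germ line markers, aubergine (sw10899) was the brightest, with 8943 to 11030 in EGFP RNAi. The median of the 15 such probes there was 174, and 6 of them had at least 400 on every array. So had 23 of 84 muscle probes (median 201), 5 of 25 haemocyte, 3 of 10 silk gland and 1 of 15 fat body probes. No cell identity is read from these lists.

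Zinc finger probes were brighter than the array as a whole. Of the 280, 180 (64.3%) were measured on at least 1 array, against 47.6% of all gene probes, and 112 (40%) on all 4, against 27.9%. Their median intensity over both channels and all arrays was 369, with quartiles of 165 and 968, against 220 for all gene probes. The 100 members measured on no array are not described further.

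Taken as a list, the zinc finger probes moved about as often as other genes, and the number past 2-fold was small in BmSCE RNAi and larger in BmPHO and BmSCM RNAi. In BmSCE RNAi 1 of 136 measured members rose and 2 fell (0.735% and 1.47%), while 2.43% of all gene probes rose and 1.1% fell. In BmESC RNAi 9 of 162 rose and 3 fell (5.56% and 1.85%), beside 4.46% and 3.25% of all gene probes. In BmPHO RNAi 15 of 126 rose and 8 fell (11.9% and 6.35%), beside 11.8% and 7.82%. In BmSCM RNAi 20 of 139 rose and 6 fell (14.4% and 4.32%), beside 9.46% and 6.29%. The median log2 ratio of the members was 0.11, 0.10, 0.06 and 0.12 under RNAi of BmSCE, BmESC, BmPHO and BmSCM, and that of all gene probes 0.02, 0.02, 0.05 and 0.07. Their SD was wider in BmPHO and BmSCM RNAi (0.751 and 0.733) than in BmSCE and BmESC RNAi (0.414 and 0.482), as it was for all gene probes (0.828 and 0.760, with 0.449 and 0.548).

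**Figure D1:**
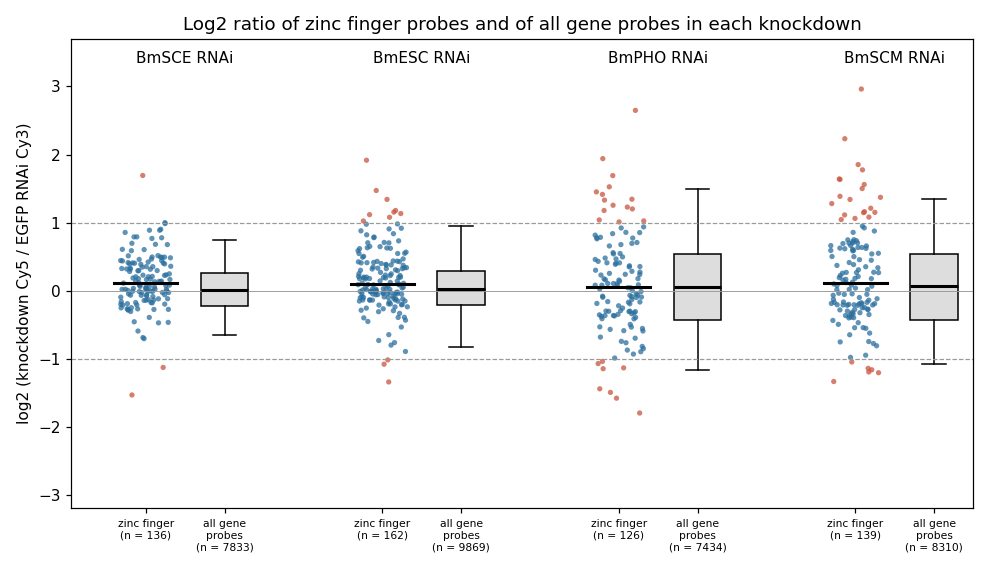
Log2 ratio of knockdown over EGFP RNAi for each measured zinc finger probe (points, 136, 162, 126 and 139 on the 4 arrays) beside all gene probes measured on the same array (boxes from the lower to the upper quartile, whiskers from the 5th to the 95th percentile). Orange points lie past 2-fold (dashed lines) and black bars are medians, which stay between 0.02 and 0.12.

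Many of these calls rested on a dim channel. With at least 400 in both channels, the risen members numbered 1 of 115 (BmSCE), 8 of 134 (BmESC), 8 of 101 (BmPHO) and 9 of 102 (BmSCM RNAi) (0.87%, 5.97%, 7.92% and 8.82%), beside 1.67%, 3.31%, 7.59% and 6.64% of all gene probes. The fallen members numbered 0, 2, 4 and 5, beside 0.82%, 3.17%, 6.55% and 6.38% of all gene probes. The medians of these brighter members were 0.06, 0.03, -0.01 and -0.02, and 7 of the 15 rises in BmPHO RNAi and 11 of the 20 in BmSCM RNAi had an EGFP RNAi channel under 400. For those the ratio is uncertain, and the ratio with both channels raised to 400 on the same loess curve is given beside it for several named members. That value moves with the normalization too and is no strict lower limit.

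In all, 39 of the 180 members measured on at least 1 array passed 2-fold there (21.7%, beside 21.6% of all gene probes measured likewise), 28 upward and 11 downward (15.6% and 6.11%, beside 13% and 8.75%). With both channels at 400 or more these were 22 of 145 (15.2%, beside 17.4%), 16 upward and 6 downward, beside 9.1% and 8.41% of all gene probes. None of the 39 passed in opposite directions on different arrays, and 20 of them passed on 1 array, 13 on 2 and 6 on 3. None of the 112 members measured everywhere rose on all arrays or fell on all arrays, whereas 0.755% and 0.447% of all gene probes did. Among the same 112, 18 rose on any array (16.1%, beside 13.6% of all gene probes) and 9 fell on any (8.04%, beside 13.3%).

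Both growth factor independent probes of the list rose in BmESC, BmPHO and BmSCM RNAi. Gfi-1 is a C2H2 transcriptional repressor that governs blood cell development in mammals, and its Drosophila counterpart Senseless is required for sensory organs. The 2 probes belong to different predicted silkworm genes. The first, sw14475, matched a sea urchin Gfi-1 and gave 2604, 6065, 4634 and 5494 under RNAi of BmSCE, BmESC, BmPHO and BmSCM, against 1247, 1231, 1578 and 990 in EGFP RNAi on the same arrays. Every knockdown value lay above every EGFP RNAi value. Its log2 ratios were 0.85, 1.92, 1.53 and 2.23, past 2-fold in all but BmSCE RNAi, with both channels above 400 throughout. On the BmESC array it held rank 47 from the top of 9869 measured gene probes, on the BmSCM array rank 83 of 8310, on the BmPHO array rank 356 of 7434 and on the BmSCE array rank 284 of 7833.

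The other probe, sw08248, matched a zebrafish growth factor independent 1 and was dimmer. It gave 1102, 1216, 1109 and 2133 under RNAi of BmSCE, BmESC, BmPHO and BmSCM, against 512, 456, 433 and 501 in EGFP RNAi. Again no knockdown value reached down to the EGFP RNAi values, which lay close together. The log2 ratios were 0.89, 1.08, 1.18 and 1.64, so that it rose in the same 3 knockdowns as sw14475 and stood just short of 2-fold in BmSCE RNAi. With the authors' normalized ratios the BmSCE RNAi value was 1.21 and passed as well. Both probes had their highest ratio in BmSCM RNAi, and their normalized EGFP RNAi level varied between arrays with an SD of 0.24 and 0.26 in log2, beside a median of 0.20 for the 88 members with both channels at 400 or more everywhere.

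The largest change of any member belonged to sw03476, matched to zinc finger protein 236 of the honeybee, a protein with a long row of C2H2 fingers. It gave 734, 1102, 1886 and 3732 under RNAi of BmSCE, BmESC, BmPHO and BmSCM, against 449, 535, 266 and 358 in EGFP RNAi. The knockdown values of BmPHO and BmSCM RNAi stood apart from the rest. Its log2 ratios were 0.48 and 0.70 in BmSCE and BmESC RNAi, within 2-fold, and 2.65 and 2.96 in BmPHO and BmSCM RNAi. The EGFP RNAi channel was under 400 on these last arrays, and with it raised to 400 the log2 ratios were 2.06 and 2.80. They were 2.01 and 2.79 where the loess curve was fitted anew to raised intensities, and 1.97 and 2.89 with the authors' normalized ratios, past 2-fold each time. Its normalized EGFP RNAi level on the BmPHO and BmSCM arrays minus that on the other pair was -0.41 on the log2 scale, and its part in the result was not tested.

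**Figure D2:**
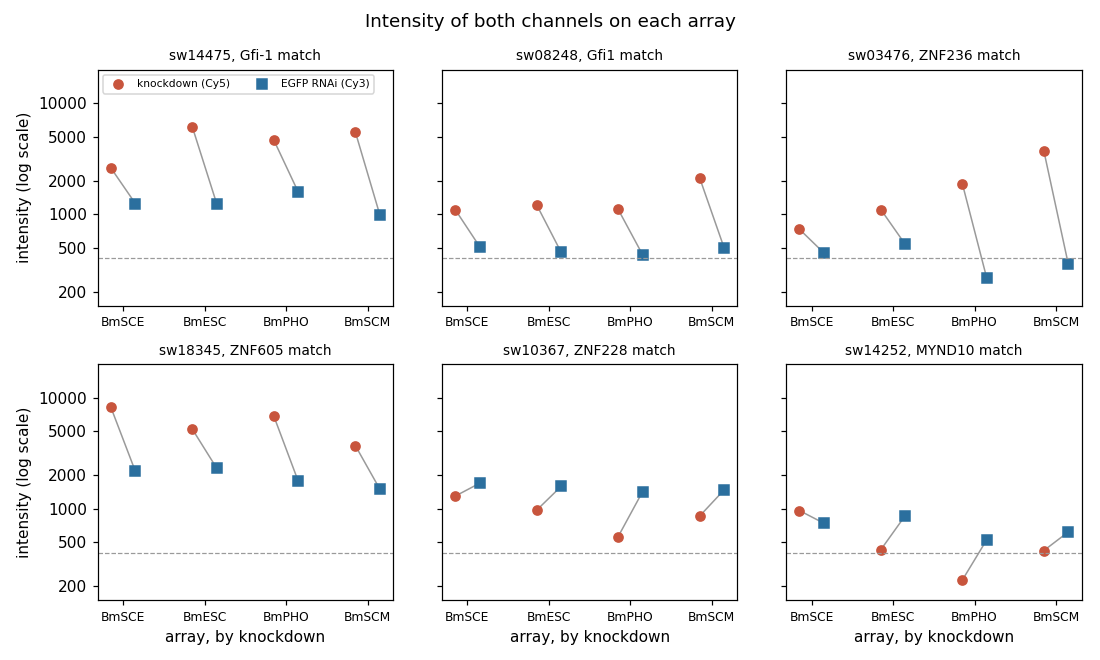
Intensity (log scale) of the knockdown (orange circles, Cy5) and EGFP RNAi (blue squares, Cy3) on each of the 4 arrays for 6 zinc finger probes, with the 400 limit dashed. For both Gfi matches the knockdown lies above EGFP RNAi on every array, sw03476 opens to 3732 against 358 in BmSCM RNAi, and sw10367 lies below EGFP RNAi everywhere.

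Several further members rose on more than 1 array with both channels at 400 or more. The brightest was sw18345, matched to zinc finger protein 605 of the mouse, with 8148, 5184, 6790 and 3696 under RNAi of BmSCE, BmESC, BmPHO and BmSCM, against 2167, 2304, 1759 and 1503 in EGFP RNAi. It was the only member that rose in BmSCE RNAi (4 did with the authors' ratios), and its log2 ratios were 1.69, 0.79, 1.94 and 1.06, highest in BmPHO and BmSCE RNAi. It ranked 34 of 7833 on the BmSCE array. A probe matched to zinc finger protein 91, sw06109, gave 3244, 5540, 3542 and 3764 in the knockdowns, against 2100, 1531, 1349 and 1477 in EGFP RNAi. Its highest value was that of BmESC RNAi, and its log2 ratios were 0.42, 1.47, 1.34 and 1.11, so that, like the Gfi matches, it rose in all but BmSCE RNAi.

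A match to ZNF216 (sw21933), whose mammalian relative joins A20 and AN1 fingers and binds ubiquitin chains rather than DNA, gave 709, 1517, 984 and 1337 in the knockdowns, against 397, 471, 453 and 361 in EGFP RNAi. It rose in BmESC RNAi (1.34) and BmSCM RNAi (1.34, and 1.19 with its EGFP channel raised to 400) and reached 0.94 in BmPHO and 0.61 in BmSCE RNAi. A match to Zfx (sw09929), an X-linked transcriptional activator in mammals, gave 4061, 2889, 3460 and 3938 in the knockdowns, against 1776, 1651, 1672 and 1502 in EGFP RNAi. The EGFP RNAi values of this probe lay close together (SD 0.09 in log2), and its log2 ratios of 0.98, 0.42, 1.01 and 1.16 lay on both sides of the threshold.

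A match to zinc finger protein 85 (sw03497) rose in BmPHO RNAi alone (1.25, with 2595 against 1028 in EGFP RNAi) with -0.05, 0.43 and 0.92 on the BmSCE, BmESC and BmSCM arrays, but reached only 0.93 in BmPHO RNAi with the authors' ratios. The zinc finger protein 91 match sw12313 rose in BmSCM RNAi alone (1.39, with 4405 against 1445 in EGFP RNAi) and was within 2-fold elsewhere, at 0.20, 0.38 and 0.56. Its EGFP RNAi intensity on the BmPHO array was 623, under the 1679, 1831 and 1445 of the other arrays, and its normalized EGFP RNAi level varied with an SD of 0.65.

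Of the 9 members risen in BmESC RNAi, 5 passed 2-fold on no other array, and the highest of these with both channels at 400 or more were sw17341 and sw19904. The match to zinc finger protein 177 (sw17341) gave 4913, 7528, 3574 and 3855 in the knockdowns, against 2644, 2554, 2554 and 2194 in EGFP RNAi. Its log2 ratios were 0.68, 1.18, 0.47 and 0.62, all above 0. The match to zinc finger protein 2 (sw19904) gave 1209, 1922, 534 and 1089 in the knockdowns, against 652, 680, 687 and 711 in EGFP RNAi. Here the log2 ratio was 0.68 in BmSCE and 1.13 in BmESC RNAi, 0.12 in BmSCM RNAi and -0.56 in BmPHO RNAi, where the knockdown lay below EGFP RNAi.

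Fewer members fell. A match to human ZNF228 (sw10367) fell in all but BmSCE RNAi. It gave 1298, 970, 560 and 858 under RNAi of BmSCE, BmESC, BmPHO and BmSCM, against 1696, 1589, 1423 and 1474 in EGFP RNAi. No knockdown value reached the EGFP RNAi values, and the log2 ratios were -0.59, -1.08, -1.50 and -1.21. A match to the MYND domain protein 10 (sw14252), which in vertebrates and flies is needed to build the dynein arms of motile cilia, gave 963, 428, 228 and 420 in the knockdowns, against 741, 869, 526 and 618 in EGFP RNAi. BmSCE RNAi was the exception, at 0.16, and the other log2 ratios were -1.34, -1.44 and -1.16. The last of these was -0.71 with median centring and -0.91 with the authors' ratios, short of 2-fold. In BmPHO RNAi its knockdown channel was under 400, and with it raised to 400 the log2 ratio was -0.63, short of 2-fold. The other measured MYND match, sw18354, gave -1.13 and -1.02 in BmSCE and BmESC RNAi with 303 and 322 in the knockdowns, against 559 and 532 in EGFP RNAi, so both of its falls rested on a dim knockdown channel, and it was not measured on the other arrays.

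A match to zinc finger protein 292 (sw11617) was the brightest member to fall. It gave 5097, 3016, 2052 and 1614 under RNAi of BmSCE, BmESC, BmPHO and BmSCM, against 4403, 4302, 4157 and 3458 in EGFP RNAi. The log2 ratio was -0.01 in BmSCE RNAi and -0.90 in BmESC RNAi, and the fall passed 2-fold in BmPHO RNAi (-1.04) and in BmSCM RNAi (-1.34). The knockdown intensity was thus near that of EGFP RNAi in BmSCE RNAi and under 2-fold below it in BmESC RNAi.

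Other falls were seen on the BmPHO and BmSCM arrays. The zinc finger protein 709 match sw06220 gave 1411, 1929, 513 and 716 in the knockdowns, against 1346, 1249, 1376 and 1051 in EGFP RNAi, with log2 ratios of -0.14, 0.25, -1.58 and -1.05, the last of which was -0.68 with the authors' ratios. A plain zinc finger probe, sw07636, behaved alike at -1.14 in BmPHO and -1.20 in BmSCM RNAi (412 and 359, against 789 and 534 in EGFP RNAi), with 0.02 and 0.31 on the BmSCE and BmESC arrays. Its knockdown channel in BmSCM RNAi was under 400, and with it raised to 400 the log2 ratio was -1.04. A match to zinc finger protein 289 (sw13863), a GTPase-activating protein for ARF in human cells, fell in BmSCM RNAi alone, at -1.14, and gave -0.71, -0.44 and -0.70 in BmSCE, BmESC and BmPHO RNAi.

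The BmPHO and BmSCM arrays called many of the same members. Of 118 members measured on both, 12 rose on both (10.2%, beside 7.74% of all gene probes) and 5 fell on both (4.24%, beside 4.1%). A further 2 rose on the BmPHO array alone and 4 on the BmSCM array alone, while 3 and 1 fell on those arrays alone, and none rose on one and fell on the other. With both channels at 400 or more on both arrays, 6 of 90 rose (6.67%, beside 4.98%) and 3 fell (3.33%, beside 3.36%). Since both ratios are taken over the same EGFP RNAi RNA, an error in that RNA would appear in both and these counts are not independent.

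Of the 12 risen on both, 3 had also risen in BmESC RNAi (both Gfi matches and sw06109) and 1 in BmSCE RNAi (sw18345). The other 8 were past 2-fold on neither of those arrays where they were measured, and included sw03476, sw09929, sw05975, sw06268, sw12364 and sw19309. Of the 12, 11 were measured in BmESC RNAi and 9 of these lay above 0 there. All 9 that were measured in BmSCE RNAi lay above 0 as well. The same split over all gene probes is not given, so it is not read as a trait of the members. The study's own table of genes up in both knockdowns, drawn from the same arrays, holds 11 of the 280, and 10 of them were among the 12, which is no independent support.

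The last 4 of those named were dim and their ratios rested on an EGFP RNAi channel of 115 to 273. The zinc finger protein 420 match sw05975 gave 444 and 526 in BmPHO and BmSCM RNAi, against 115 and 143 in EGFP RNAi, for log2 ratios of 1.69 and 1.21. With both channels raised to 400 no rise was left (-0.11 and -0.27). The same held for sw12364, a match to the chromatin remodelling subunit BAZ1A, with 500 and 555 in the knockdowns against 154 and 135 in EGFP RNAi, log2 ratios of 1.45 and 1.37, and 0.07 and -0.20 after raising. For sw19309, a zinc finger protein 91 match with 676 and 1270 in the knockdowns against 247 and 273 in EGFP RNAi, the log2 ratios were 1.23 and 1.63, and 1.08 remained in BmSCM RNAi after raising. The zinc finger protein 585A match sw06268 gave 1.04 and 1.08, and 0.36 and 0.30 after raising.

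**Figure D3:**
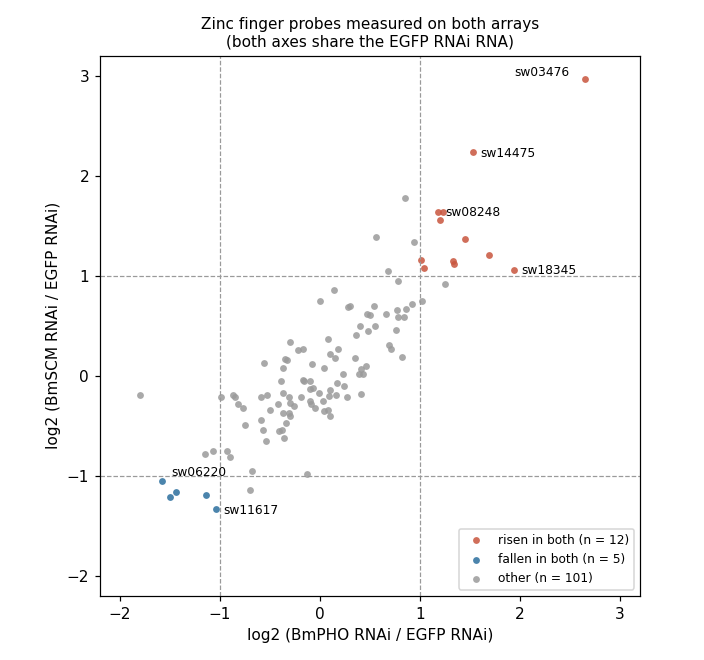
Log2 ratio against EGFP RNAi in BmPHO RNAi (horizontal) and BmSCM RNAi (vertical) for the 118 zinc finger probes measured on both arrays, with dashed lines at 2-fold. The 12 risen on both are orange, the 5 fallen on both blue and no probe lies past 2-fold in opposite directions, and both axes share the EGFP RNAi RNA.

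The knockdowns can also be set against each other by subtracting the log2 ratios of 2 arrays. Of 90 members with both channels at 400 or more on the BmSCM and BmPHO arrays, none differed by more than 2-fold, beside 1.14% higher and 0.613% lower among all gene probes. Between BmPHO and BmESC RNAi, 2 of 97 were higher in BmPHO RNAi and 10 lower (2.06% and 10.3%), beside 4.25% and 4.62% of all gene probes. Between BmPHO and BmSCE RNAi, 1 of 97 was higher in BmPHO RNAi and 7 lower (1.03% and 7.22%), beside 4.82% and 3.62%. In both comparisons the share lower in BmPHO RNAi was above that of all gene probes and the share higher was below it. The 2 comparisons share the 1 BmPHO array and are not independent. The rule on both channels also left out 7 of the 15 rises in BmPHO RNAi, sw03476 among them, because their EGFP RNAi channel was dim. Between BmESC and BmSCE RNAi, 4 of 110 were higher in BmESC RNAi and 3 lower (3.64% and 2.73%, beside 1.81% and 1.73%). BmSCM RNAi was higher than BmESC RNAi in 5 of 96 and lower in 8 (5.21% and 8.33%, beside 4.6% and 5.73%), and higher than BmSCE RNAi in 5 of 95 and lower in 3 (5.26% and 3.16%, beside 4.58% and 3.44%).

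**Figure D4:**
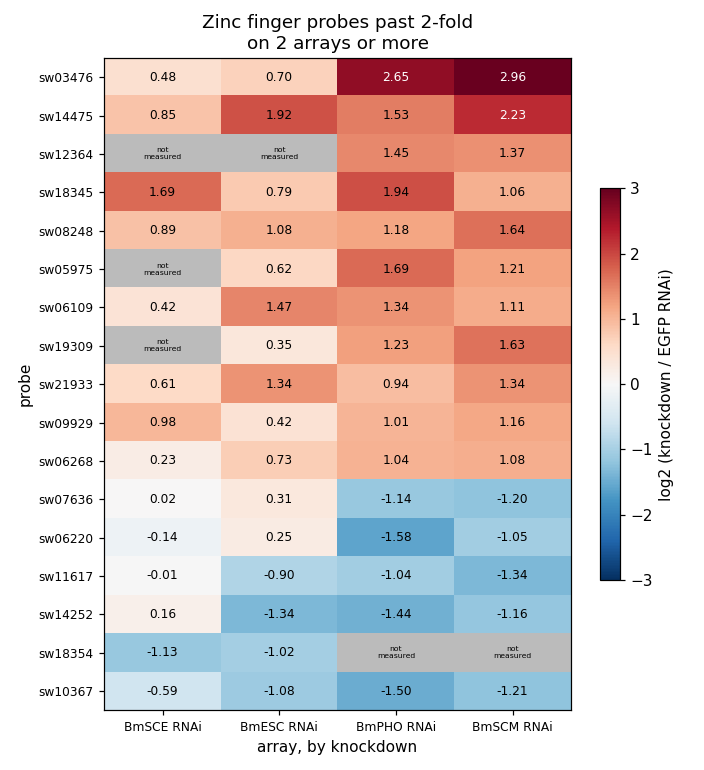
Log2 ratio against EGFP RNAi of 17 of the 19 zinc finger probes past 2-fold on 2 arrays or more (rows, ordered by their mean) on the 4 arrays (columns), with grey where a probe was not measured. The 11 upper rows hold the rises, led by sw03476 at 2.65 and 2.96 in BmPHO and BmSCM RNAi over EGFP RNAi channels under 400, and the 6 lower rows the falls.

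By the kind of finger named in the annotation, calls were found mostly among names that gave no such class, whether numbered, plain or other. These also held most probes: 147 of 225 were measured. The rises were 1 of 111, 6 of 134, 12 of 100 and 16 of 111 on the arrays in their usual order, beside 2.43%, 4.46%, 11.8% and 9.46% of all gene probes, and 1, 1, 7 and 5 fell, beside 1.1%, 3.25%, 7.82% and 6.29%. With both channels at 400 or more the rises were 1 of 94, 5 of 109, 6 of 80 and 7 of 81, beside 1.67%, 3.31%, 7.59% and 6.64% of all gene probes. Both growth factor independent probes rose in 3 knockdowns, as described, and both measured MYND probes of 4 fell in BmESC RNAi. All 4 probes of the AN1 or A20 class were measured on at least 1 array, and of these only sw21933 passed 2-fold. Of 7 probes for bromodomain adjacent to zinc finger proteins, which are subunits of chromatin remodelling complexes, 5 were measured and only the dim sw12364 passed.

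Other classes stayed within 2-fold wherever they were measured. These were the DHHC palmitoyltransferases (1 of 5 measured), the FYVE proteins of endosomes (2 of 5), the RNA-binding CCCH (2 of 3) and CCHC (1 of 2) proteins, the RING proteins (2 of 3), the homeodomain probes (1 of 3) and the SWIM, ZZ, matrin, BTB and PR domain probes. The 3 HIT finger probes, all measured on every array, had a median log2 ratio of -0.37 in BmPHO RNAi and -0.63 in BmSCM RNAi, with -0.07 and 0.20 in BmSCE and BmESC RNAi. None of the BED (2), PHD (1) and NFX1 (1) probes was measured.

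Probes that share a name had widely different ratios. The 31 zinc finger protein 91 matches, 24 of them measured, spread over -0.47 to 0.51 in BmSCE RNAi and -0.76 to 1.47 in BmESC RNAi, and further, over -1.15 to 1.41 and -0.95 to 1.63, on the BmPHO and BmSCM arrays. Those that rose were 0 of 15, 2 of 20, 4 of 18 and 6 of 18 on the 4 arrays, beside 2.43%, 4.46%, 11.8% and 9.46% of all gene probes, and 1 fell, in BmPHO RNAi. With both channels at 400 or more they were 0 of 13, 2 of 17, 2 of 12 and 3 of 12, beside 1.67%, 3.31%, 7.59% and 6.64% of all gene probes. The 12 zinc finger protein 709 matches ran from -1.80 to 0.76 in BmPHO RNAi and from -1.05 to 1.85 in BmSCM RNAi. The lower end in BmPHO RNAi was sw18675, which gave 281 there, against 845 in EGFP RNAi, had a log2 ratio of -1.29 with the dim channel raised to 400, and was within 2-fold on the other arrays. By contrast, 11 matches to zinc finger protein 208, of which 8 were measured, held no call on any array. Probes of 1 silkworm gene number differed by a median SD of 0.17, 0.12, 0.21 and 0.24 on the 4 arrays, over 87 to 96 genes. Probes of 1 predicted gene differed by 0.13, 0.17, 0.37 and 0.25, over 23 to 27 genes. These SDs within a gene are another measure than the ranges above, which run from the lowest to the highest of many probes, so their sizes cannot be compared directly.

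Among the 26 members matched to insect proteins, 14 were measured, 4 rose on at least 1 array, beside 13% of all gene probes measured likewise, and none fell. The EGFP RNAi channel was under 400 at every one of these rises, where only the knockdown channel met the limit of the flag, so 0 rose with both channels at 400 or more. The first was sw03476 and another sw12364. The centrosome-associated zinc finger protein of Drosophila, known as CP190, is an insulator protein with C2H2 fingers. Its match sw16449 gave 447 and 1356 in BmPHO and BmSCM RNAi against 209 and 265 in EGFP RNAi, with log2 ratios of 0.85 and 1.77, the second of them 1.18 with the EGFP channel raised to 400, and was not measured on the other arrays. Another probe with the same match, sw06814, stayed at 0.06, -0.39, -0.37 and -0.37, with at least 1412 in every channel.

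The fourth was a match to Drosophila jing (sw20873), a C2H2 factor of tracheal and nervous system development whose mammalian relative AEBP2 accompanies PRC2, singled out here for that role after its values were seen. It was measured in BmSCM RNAi only, where it gave 580, against 129 in EGFP RNAi, and a log2 ratio of 1.50, but -0.13 with both channels raised to 400. Several developmental regulators of flies were too dim to follow: the matches to zfh1 and pannier and 2 of 3 matches to hindsight were not measured on any array. The other hindsight match, sw00398, was measured in BmSCM RNAi only (2211 against 1110 in EGFP RNAi, a log2 ratio of 0.66).

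None of the 5 members tied to silkworm genes passed 2-fold on any array. The JAZ-like dsRNA-binding protein (sw00006) gave 0.89, 0.03, 0.86 and 0.66 under RNAi of BmSCE, BmESC, BmPHO and BmSCM, above 0 but short of 2-fold on each, with an EGFP RNAi channel of 175 on the BmSCE array. Of 2 probes for NANOS-O, a translational repressor family of germ cells, 1 was measured, in BmPHO RNAi only (0.24). The 3 brightest members of the list also stayed within 2-fold. They were sw11158, which its other annotation names ribosomal protein L7Ae, at 0.13, -0.65, -0.30 and -0.27, the plain zinc finger probe sw03610 at 0.32, 0.00, 0.28 and 0.69, and sw05391, a ZNRF2 match, at 0.20, -0.73, -0.99 and -0.22.

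Zinc finger factors whose names do not say so were looked up by words such as Kruppel, broad, GATA and CTCF. Of 36 such probes 17 were measured. Those that rose were 0 of 8 in BmSCE RNAi and 1 of 17 in BmESC RNAi, with 3 of 9 and 4 of 11 on the BmPHO and BmSCM arrays, and none fell on any array. The shares risen among all gene probes were 2.43%, 4.46%, 11.8% and 9.46%. With both channels at 400 or more, 0 of 5, 0 of 10, 1 of 7 and 2 of 7 rose, beside 1.67%, 3.31%, 7.59% and 6.64%. The medians of the measured ones were 0.16, 0.26, 0.73 and 0.66, and the words also caught a few names that are not zinc finger factors.

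Of these, the match to CTCF (sw05609), the insulator protein, rose in BmSCM RNAi alone: it gave 1899, 1752, 1446 and 3664 in the knockdowns, against 1457, 1158, 1082 and 1232 in EGFP RNAi, and log2 ratios of 0.17, 0.22, 0.31 and 1.31. A Lola-like match (sw07932) rose to 1449 and 1419 in BmPHO and BmSCM RNAi, against 468 and 449 in EGFP RNAi, at 1.47 and 1.14. It was caught by the word Lola, and whether its protein holds zinc fingers was not checked. With both channels at 400 or more it was the 1 rise in BmPHO RNAi and 1 of the 2 in BmSCM RNAi. A match to fruitless (sw02617), the Drosophila factor of courtship behaviour, gave 1.33 and 1.27 on these arrays with EGFP RNAi channels of 242 and 232. A match to Blimp-1 (sw03214), a transcriptional repressor induced by ecdysone in flies, reached 0.98 and 0.92 there and -0.05 and -0.18 in BmSCE and BmESC RNAi. The silkworm broad-complex probe (sw03828), an ecdysone response factor, gave 0.20, 0.87, 0.73 and 0.66 and passed 2-fold on no array. The highest ratio was that of a GATA-binding protein 3 match (sw03881), 1.87 in BmSCM RNAi, with 1.01 in BmESC RNAi, over EGFP RNAi channels of 130 and 290. A basic Kruppel-like factor match (sw11439) gave 1.02 in BmPHO RNAi over 214. A Kruppel/Krox match (sw11145) lay below 0 throughout, at -0.02, -0.77, -0.65 and -0.42. No rule fixed in advance which of these factors were named.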

How the data were processed

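RNA of BmN4-SID1 cells on day 7 of RNAi was measured on 2-colour oligonucleotide arrays, 1 per knockdown, with RNA pooled from 3 experiments. The intensity columns were deposited by the authors after background subtraction, per channel. The ratio column deposited by the authors is Cy5 over Cy3 after their own normalization within the array, by a method that is, like the image software, not given in the sources used here. Values of the series table, also deposited by the authors, are the log2 of that ratio. They were used, with the ratio column, as an alternative only, and correlated with the values here at 0.961 to 0.971 per array.

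Intensities under 100 were set to 100, and log2(Cy5/Cy3) was normalized by loess within each array over all gene probes with limma 3.58.1 in R 4.3.3, with control and blank spots at weight 0. Counts were made in Python 3.11.15 with pandas 2.3.3 and numpy 2.4.6, and drawn with matplotlib 3.10.9. A spot was measured when the authors' flag was passed. A change was called past 2.0-fold, the study's threshold, without a p-value, because 1 array per knockdown leaves no replicate error. Where a channel was under 400, both channels were raised to 400 for a second ratio on the same curve. The number of arrays limits the precision, and 71, 100, 30 and 26 of 382 blank spots passed the flag on the BmSCE, BmESC, BmPHO and BmSCM arrays. The procedure was tested on simulated data.

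Members and lists were chosen with earlier results of these data known. Named members were the Gfi-1 and zinc finger protein 236 matches and all Gfi probes, up to 5 largest rises and falls per knockdown with both channels at 400 or more, those on all arrays or in opposite directions, up to 8 risen and fallen in BmPHO and BmSCM RNAi, those in the study's table for these knockdowns, and the 3 brightest. Members named outside the rule (sw18035, sw18354, sw18675, sw20873, sw06814, sw00398, sw00006, sw19687) were chosen after their values were seen. Classes of finger were set from words in the annotation. The planned search for fingers in RefSeq proteins was not run, since no protein sequences were used here. RefSeq gene names (a different assembly) were matched for the 5 probes with a gene number, all 5 found. The values of 2 members are not reported here.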

Additional observations from a re-analysis of the deposited data

Results flagged for a closer look

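In 2 members a rise past 2-fold in BmESC RNAi stood beside a value below 0 in BmPHO RNAi. In size the latter exceeded the highest SD between control spots (0.42), that of a control probe on the BmESC array. On the BmPHO array these SDs were 0.09 to 0.11, so 0.42 is no measure of error there. The criterion was set after the values of the members had been seen, and the difference between the knockdowns was not tested, since each has 1 array. How many of all gene probes met it is not given, so it is not read as a trait of the members. Under the rule on both channels, 4.62% of all gene probes were lower in BmPHO than in BmESC RNAi by more than 2-fold, and 4.25% were higher. The zinc finger protein 2 match sw19904 had a log2 ratio of 1.13 in BmESC RNAi (1922 against 680 in EGFP RNAi) and -0.56 in BmPHO RNAi (534 against 687 in EGFP RNAi). The ZNF416 match sw18035 had 1.02 in BmESC RNAi (1953 against 744 in EGFP RNAi) and -0.87 in BmPHO RNAi (426 against 678 in EGFP RNAi), with -0.28 in BmSCE and -0.19 in BmSCM RNAi.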

How the results depend on the processing

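No paired analysis was possible because each knockdown has 1 array and the labels give no replicate numbers. Of 46 called log2 ratios of named members, 42 stayed past 2-fold with the authors' normalized ratios, 41 with loess within print blocks, 44 with loess from bright spots, 39 with median centring and 35 with intensities under 400 set to 400, none of them changing sign. Of the same 46, 32 had both channels at 400 or more. That setting drops probes and leaves the ratios as they were, so it is no test of these 32. Counts of members were less stable, and the cause was not tested where it does not follow from the setting. Median centring moved the median of all gene probes to 0.11, 0.16, 0.14 and 0.31 and that of the members to 0.22, 0.27, 0.16 and 0.42. Risen members were then 5, 16 and 31 in BmSCE, BmESC and BmSCM RNAi. Among all gene probes 257, 620 and 1519 rose there, in place of 190, 440 and 786. In BmESC and BmSCM RNAi 1 member fell each, beside 219 and 266 of all gene probes, in place of 321 and 523. In BmPHO and BmSCM RNAi together 1 member fell, beside 162 of all gene probes in place of 289. In BmSCE RNAi the 1 rise became 2 with print blocks, 4 with bright spots and 4 with the authors' ratios, and the 2 falls became 1 with bright spots. Among all gene probes the 190 rises became 175, 230 and 183 in these settings, and the 86 falls became 66 with bright spots. Loess from bright spots also gave a median of 0.32 in BmSCM RNAi (0.25 for all gene probes) and 30 rises there in place of 20 (1515 in place of 786 among all gene probes). Falls there were 4 in place of 6 (340 in place of 523 among all gene probes). In BmPHO and BmSCM RNAi together 3 members fell, beside 207 of all gene probes in place of 289. With intensities under 400 set to 400, 9 rose in BmPHO and 13 in BmSCM RNAi, none fell in BmSCE RNAi (0), and 7 rose and 3 fell in BmPHO and BmSCM RNAi together. Among all gene probes 519 and 467 rose, in place of 879 and 786, and 59 fell in BmSCE RNAi, in place of 86. In BmPHO and BmSCM RNAi together 331 of all gene probes rose and 250 fell, in place of 546 and 289. With both channels at 400 or more, which tests fewer probes, 8 rose and 4 fell in BmPHO RNAi, 9 rose in BmSCM RNAi with a median of -0.0204, 0 fell in BmSCE RNAi, and 6 rose and 3 fell in BmPHO and BmSCM RNAi together.

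Set against the mean of the other 3 arrays, which removes what the knockdowns share along with the EGFP RNAi reference, 3, 1 and 2 members rose in BmSCE, BmPHO and BmSCM RNAi, 5 fell in BmPHO and 0 in BmSCM RNAi, and the medians were -0.0551 in BmPHO and -0.10 in BmSCM RNAi. Counts over all gene probes are not given beside these, so they are not read as a trait of the members. Of 39 called values 5 stayed past 2-fold and 5 changed sign: sw08248 in BmESC (-0.16) and BmPHO RNAi (-0.0245), sw10367 in BmESC RNAi (0.0172), sw14475 in BmPHO RNAi (-0.14) and sw18345 in BmSCM RNAi (-0.41). Probes with a channel under 400 are limited by their signal over background, and no error between cultures can be had from these arrays.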
